A study of Homo sapiens with 6 samples.

Results

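The transcripts described here are long non-coding RNAs and snoRNA host genes, taken by symbol: every LINC gene, every antisense (-AS) or intronic (-IT) transcript, the SNHG genes, the microRNA host genes (MIR...HG), and GAS5, ZFAS1, EPB41L4A-AS1 and DANCR. They were 269 of the 11679 genes in the deposited tables, made up of 22 snoRNA hosts, 15 microRNA hosts, 79 LINC genes, 150 antisense transcripts and 3 intronic transcripts. Polyadenylated RNA had been sequenced from 786-O, an established human clear cell renal carcinoma line that lacks working VHL. The 3 groups held 2 libraries each, from cells given a non-targeting control siRNA, ALYREF siRNA5 or ALYREF siRNA8 and harvested 48 h after transfection. ALYREF is an adaptor of the TREX complex, which couples the processing of RNA in the nucleus to its export. All groups were grown alike in the same line, and the labels do not say whether the libraries of a group came from separate cultures. Every p-value below therefore rests on the scatter of duplicate libraries, and that scatter may be technical.

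Depth and values per library are not given in the sources used here. For each gene the authors' deposited tables give 1 mean normalized count over the libraries and, for each siRNA, a log2 fold change against the control with its standard error (SE) and an adjusted p. Group levels below are mean normalized counts rebuilt from that mean and both fold changes, so they carry no spread of their own. A gene was called higher or lower at an adjusted p under 0.05 in the authors' deposited tables (DESeq2 Wald test, Benjamini-Hochberg), and the 2 comparisons share their control libraries. ALYREF fell by 4.14 (SE 0.096) after siRNA5 and fell by 3.67 (SE 0.085) after siRNA8 in the authors' deposited tables, which left 5.67% and 7.83% of the control level. The line's own genes were present, with mean counts of 2354 for PAX8, 53094 for VIM and 182 for ANPEP in the authors' deposited tables, and neither PTPRC nor PECAM1, markers of immune and endothelial cells, is among the listed genes. In bulk RNA, fewer expressing cells and less RNA per cell cannot be told apart.

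Long non-coding RNAs are transcribed, capped, spliced and polyadenylated like messenger RNAs, but many stay in the nucleus and act at chromatin or as scaffolds. A snoRNA host gene carries small nucleolar RNAs in its introns: C/D box snoRNAs guide ribose methylation of ribosomal RNA, H/ACA box snoRNAs guide pseudouridylation, and the spliced exons are exported as a non-coding RNA that is often removed by nonsense-mediated decay. A microRNA host gene carries the hairpins that Drosha cuts out of the nascent transcript.

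The snoRNAs of 5 hosts that were called in 1 direction by each siRNA are shown, so that both box types can be seen. SNORD12C lies within ZFAS1 (GRCh38, chr20:49278940-49279028, plus strand) and SNORD1B within SNHG16 (chr17:76561109-76561192, plus strand). SNORD60 lies within SNHG19 (chr16:2155023-2155105, minus strand). The H/ACA members shown are SNORA9 from SNHG15 (chr7:44985378-44985510, minus strand) and SNORA17A from SNHG7 (chr9:136726747-136726879, minus strand). Capitals mark box C (TGATGA) and box D (CTGA) in the C/D snoRNAs. In the H/ACA snoRNAs they mark the H box (ANANNA) and the terminal ACA. The sequences are those of GENCODE v29 transcripts, 5′ to 3′.
SNORD12C: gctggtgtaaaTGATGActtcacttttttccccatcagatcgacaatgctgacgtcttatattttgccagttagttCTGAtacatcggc
SNORD1B: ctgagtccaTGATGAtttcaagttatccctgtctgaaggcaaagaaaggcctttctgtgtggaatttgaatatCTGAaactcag
SNORD60: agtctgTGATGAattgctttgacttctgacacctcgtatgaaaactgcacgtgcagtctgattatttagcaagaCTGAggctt
SNORA9: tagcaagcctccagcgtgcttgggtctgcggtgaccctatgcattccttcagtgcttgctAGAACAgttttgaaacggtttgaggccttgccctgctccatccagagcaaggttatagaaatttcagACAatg
SNORA17A: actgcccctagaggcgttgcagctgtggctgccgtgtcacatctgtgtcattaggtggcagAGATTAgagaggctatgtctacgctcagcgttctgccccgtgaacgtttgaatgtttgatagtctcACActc

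Many snoRNA hosts begin with a terminal oligopyrimidine stretch, a C followed by further pyrimidines at the very start of the RNA. A C followed by at least 4 pyrimidines, searched on the gene's own strand from the first annotated base, stood at the RefSeq start of 6 of the 18 hosts found in the promoter table, or 33.3%, against 1429 of all 35116 promoters in that table, or 4.07%. The 6 were SNHG4, SNHG5, SNHG12, SNHG18, SNHG19 and ZFAS1. The first 30 bases of 4 of them are shown, with the pyrimidine run in capitals: ZFAS1 (GRCh38.p14, chr20:49278642-49278671, plus strand), SNHG5 (chr6:85678704-85678733, minus strand), SNHG18 (chr5:9546200-9546229, plus strand) and SNHG19 (chr16:2155329-2155358, minus strand).
ZFAS1: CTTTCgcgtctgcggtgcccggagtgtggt
SNHG5: CTTTTacgtcggccttcgcgagcgtctggg
SNHG18: CTCCTCCTCCTCCTCCTCCCCgccggggtg
SNHG19: CTTTTCggggtcgagtccgagggggaagag
These 4 hosts did not share a direction: in the authors' deposited tables, ZFAS1 was called higher, SNHG18 and SNHG19 were called lower, and SNHG5 was not called with either siRNA.

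For the microRNA hosts that were called, 8 well-known mature microRNAs, not all those they hold, are shown with the seed, bases 2 to 8, in capitals (RefSeq, GRCh38.p14). MIR22HG, on the minus strand, holds miR-22-3p (chr17:1713914-1713935), and MIR31HG, also on the minus strand, holds miR-31-5p (chr9:21512158-21512178). MIR155HG holds miR-155-5p on the plus strand (chr21:25573983-25574006). The minus-strand host MIR100HG holds miR-100-5p (chr11:122152275-122152296), let-7a-5p (chr11:122146568-122146589) and miR-125b-5p (chr11:122099809-122099830). MIR181A2HG holds miR-181a-5p (chr9:124692480-124692502) and miR-181b-5p (chr9:124693725-124693747) on the plus strand, and this pair shares the seed ACAUUCA. No other seed is shared within the set.
miR-22-3p: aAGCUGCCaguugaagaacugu
miR-31-5p: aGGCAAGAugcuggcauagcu
miR-155-5p: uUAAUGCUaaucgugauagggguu
miR-100-5p: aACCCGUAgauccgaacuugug
let-7a-5p: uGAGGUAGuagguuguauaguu
miR-125b-5p: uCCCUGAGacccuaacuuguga
miR-181a-5p: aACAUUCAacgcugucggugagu
miR-181b-5p: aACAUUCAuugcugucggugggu
Poly-A libraries do not hold the mature forms, so the values below are those of the host transcripts alone.

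With siRNA5, 21 of the 269 transcripts were called higher (7.81%) and 59 lower (21.9%) per the authors' deposited table for siRNA5. Over all 11679 genes in that table, 24.4% were called higher and 22.0% lower. The share called lower was therefore at the background, and the share called higher was below it. With siRNA8, 21 were called higher (7.81%) and 42 lower (15.6%) per the authors' deposited table for siRNA8, against 21.0% and 20.5% of all genes. The median log2 change of the 269 was -0.25 after siRNA5 and -0.18 after siRNA8, beside a median of 0.01 over all genes in each of the authors' deposited tables. Values below 0 made up 63.9% of the transcripts after siRNA5 and 61.3% after siRNA8 in the authors' deposited tables, against 48.9% and 49.3% of all genes.

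**Figure D1:**
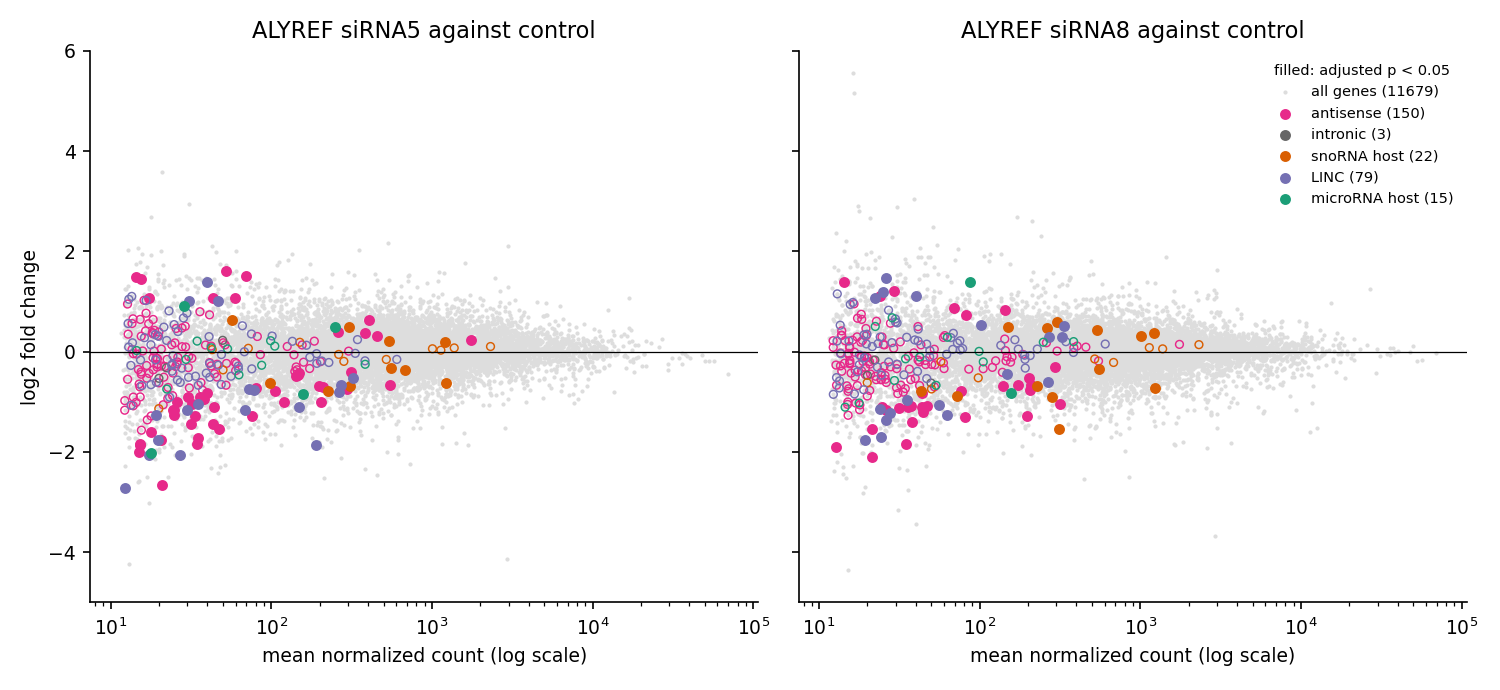
Log2 fold change against the control (vertical axis) by mean normalized count (horizontal axis, log scale) for siRNA5 (left) and siRNA8 (right), from the authors' deposited tables. Grey points are all 11679 genes, coloured points are the 269 transcripts by class, and filled ones had an adjusted p under 0.05; most coloured points lie at the low end of the count axis, with a median mean of 32.3.

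These transcripts were scarce in the libraries. Their median mean was 32.3 normalized counts, against 459 over all genes in the authors' deposited tables, and together they held 0.248% of the sum of all gene means. A mean under 50 was found for 173 of them (64.3%) and for 12.2% of all genes, and the smallest mean of any gene in the authors' deposited tables was 11.6, so rarer transcripts were not analysed here. Where the mean was under 50, the median SE of a log2 change among these transcripts was 0.47 after siRNA5 in the authors' deposited table for siRNA5, against 0.085 for the 13 with a mean of 500 or more.

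Counts at like abundance were therefore set side by side, using genes outside the set. Among genes with a mean under 50, siRNA5 called 4.62% of the 173 transcripts higher and 17.9% lower, against 5.52% and 11.1% of 1250 other genes in the authors' deposited table for siRNA5. For siRNA8 the same stratum gave 4.05% and 12.1%, against 6.80% and 10.2% of the other genes in the authors' deposited table for siRNA8. At means of 50 to 500, siRNA5 called 12.0% of 83 transcripts higher and 28.9% lower, beside 18.7% and 21.8% of 4635 other genes in the authors' deposited table for siRNA5. In that stratum the authors' deposited table for siRNA8 had 13.3% higher and 22.9% lower, beside 16.1% and 18.6%. In both strata and with both siRNAs, the share called lower was above that of the other genes and the share called higher was below it. Only 13 transcripts had a mean of 500 or more. After siRNA5, 3 were called higher (23.1%) and 4 lower (30.8%) in the authors' deposited tables, against 34.3% and 24.7% of 5525 other genes. After siRNA8, 3 were called higher (23.1%) and 2 lower (15.4%), against 29.1% and 24.6%. In this stratum the share called lower after siRNA8 was thus below that of the other genes. These are descriptions, and no test of the set was made.

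**Figure D2:**
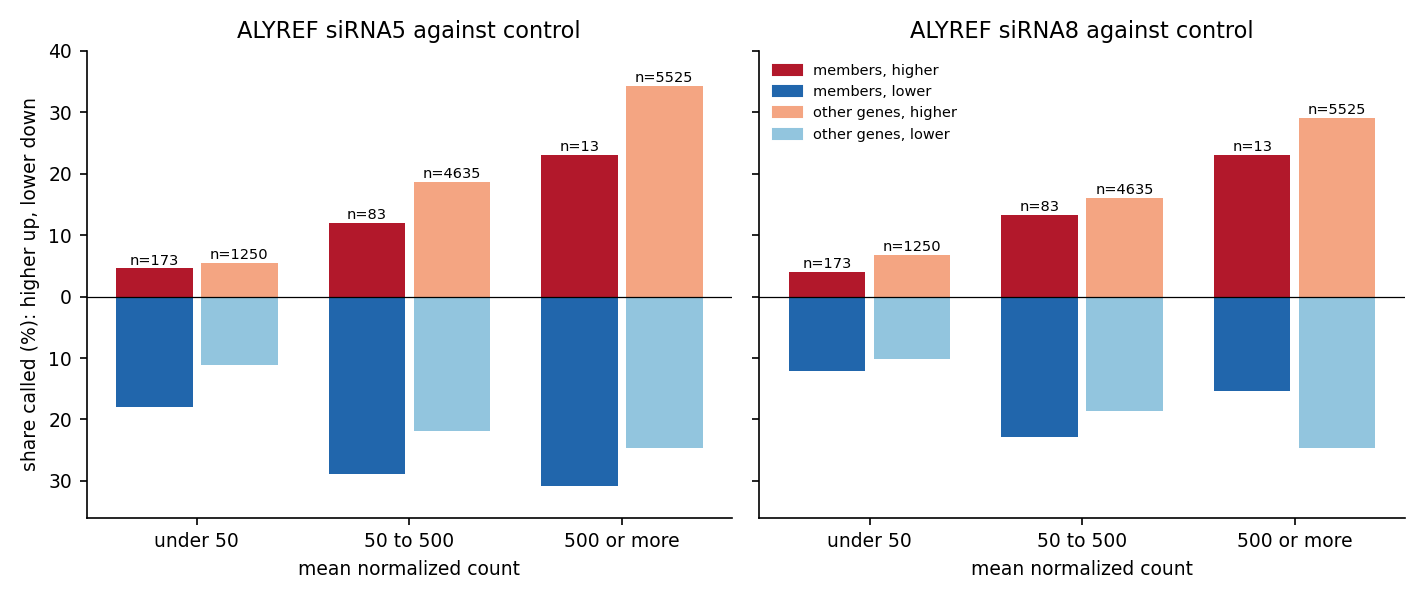
Share of genes called (percent, vertical axis; higher drawn upwards and lower downwards) in 3 strata of mean normalized count (horizontal axis) for siRNA5 (left) and siRNA8 (right). Dark bars are the 269 transcripts and light bars the other 11410 genes, with the number per stratum above each bar; below a mean of 500 the dark bars reach less far up and further down than the light ones.

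The snoRNA hosts moved in both directions. Of the 22, 4 were called higher (18.2%) and 6 lower (27.3%) after siRNA5 in the authors' deposited table for siRNA5, against 24.4% and 22.0% of all genes. After siRNA8, 6 were called higher (27.3%) and 7 lower (31.8%) per the authors' deposited table for siRNA8, against 21.0% and 20.5%. Their median log2 changes were -0.01 and -0.21 in the authors' deposited tables. The hosts called lower included SNHG7, SNHG19 and DANCR, and those called higher included SNHG15, SNHG16 and ZFAS1.

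SNHG7, which carries H/ACA snoRNAs of the SNORA17 family, had rebuilt levels of 1640.5 in the control, 1059 under siRNA5 and 989 under siRNA8. It fell by 0.63 (SE 0.085, adjusted p = 1.84e-12) after siRNA5 and fell by 0.73 (SE 0.085, adjusted p = 2.83e-16) after siRNA8 in the authors' deposited tables. DANCR, a transcript known for holding back differentiation of progenitor cells and the host of SNORA26, had levels of 308 in the control, 179.5 under siRNA5 and 193 under siRNA8. In the authors' deposited tables, DANCR fell by 0.78 (SE 0.16, adjusted p = 3.53e-06) after siRNA5 and fell by 0.68 (SE 0.15, adjusted p = 5.39e-05) after siRNA8. SNHG19, a short host of SNORD60, showed the deepest fall among the hosts, with levels of 473 in the control, 296 under siRNA5 and 162 under siRNA8. Its fall in the authors' deposited tables was -0.68 (SE 0.14, adjusted p = 4.98e-06) after siRNA5 and -1.55 (SE 0.15, adjusted p = 2.35e-23) after siRNA8, and the difference between siRNAs was 0.87 (SE 0.20, adjusted p = 0.000133). SNHG18, host of SNORD123, fell by 0.32 (SE 0.11, adjusted p = 0.00906) after siRNA5 and fell by 0.35 (SE 0.11, adjusted p = 0.00449) after siRNA8 in the authors' deposited tables, a change of under 1.5-fold either way. In SNHG19, SNHG7, DANCR and SNHG18, both knockdown levels lay below the control.

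ZFAS1, which carries the SNORD12 group and is a known target of nonsense-mediated decay, had levels of 1062 in the control, 1207 under siRNA5 and 1375 under siRNA8. ZFAS1 rose by 0.18 (SE 0.073, adjusted p = 0.0276) after siRNA5 and rose by 0.37 (SE 0.072, adjusted p = 1.71e-06) after siRNA8 in the authors' deposited tables. SNHG15, host of SNORA9, had levels of 234 in the control, 327 under siRNA5 and 351 under siRNA8 and rose by 0.48 (SE 0.13, adjusted p = 0.000674) after siRNA5 and rose by 0.58 (SE 0.13, adjusted p = 2.85e-05) after siRNA8 in the authors' deposited tables. SNHG16 carries SNORD1A, SNORD1B and SNORD1C. It rose by 0.21 (SE 0.090, adjusted p = 0.0432) after siRNA5 and rose by 0.43 (SE 0.088, adjusted p = 5.13e-06) after siRNA8 in the authors' deposited tables. The rises of this trio were smaller than the falls of SNHG7, SNHG19 and DANCR.

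Other hosts were called after siRNA8 only. GAS5, which names the growth arrest in which it was found and carries 10 C/D snoRNAs within its span, rose by 0.30 (SE 0.067, adjusted p = 3.46e-05) per the authors' deposited table for siRNA8, and its value in the authors' deposited table for siRNA5 was 0.06 (SE 0.069, adjusted p = 0.523). SNHG17, host of the SNORA71 group, had levels of 236 in the control, 227 under siRNA5 and 326 under siRNA8 and rose by 0.47 (SE 0.12, adjusted p = 0.000782) after siRNA8 in the authors' deposited table for siRNA8. EPB41L4A-AS1, host of SNORA13, rose by 0.49 (SE 0.19, adjusted p = 0.0261) in the same table. SNHG3, host of the SNORA73 pair, had levels of 352 in the control, 308 under siRNA5 and 189 under siRNA8 and fell by 0.90 (SE 0.14, adjusted p = 2.12e-09) per the authors' deposited table for siRNA8. The RefSeq span of SNHG3 overlaps that of the protein-coding gene RCC1, so their reads may be shared; RCC1, the exchange factor of Ran, fell by 0.72 (SE 0.049, adjusted p = 1.37e-47) after siRNA8 in the authors' deposited table for siRNA8. With siRNA5 the values in the authors' deposited table for siRNA5 were -0.19 (SE 0.13, adjusted p = 0.238) for SNHG3 and -0.05 (SE 0.047, adjusted p = 0.448) for RCC1. SNHG4, host of SNORA74 snoRNAs, fell by 0.89 (SE 0.25, adjusted p = 0.00113) and SNHG10, host of the Cajal body RNA SCARNA13, fell by 0.79 (SE 0.33, adjusted p = 0.0417) per the authors' deposited table for siRNA8. An effect called with 1 siRNA only is not shown to differ from the other: that test is given below for each of these.

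Calls after siRNA5 only were fewer. SNHG8, host of SNORA24, fell by 0.37 (SE 0.11, adjusted p = 0.00249) per the authors' deposited table for siRNA5, with -0.22 (SE 0.11, adjusted p = 0.103) per the authors' deposited table for siRNA8. SNHG11 fell by 0.63 (SE 0.24, adjusted p = 0.0231) and SNHG21, host of SCARNA15, rose by 0.63 (SE 0.25, adjusted p = 0.0295) per the authors' deposited table for siRNA5. The abundant hosts SNHG5, SNHG1 and SNHG6 were not called; they had siRNA5 values of 0.10, 0.07 and 0.03 and siRNA8 values of 0.14, 0.06 and 0.08 in the authors' deposited tables. SNHG12, SNHG9 and SNHG25 were not called either, at -0.16, -0.36 and -1.14 after siRNA5 and -0.15, -0.74 and -0.62 after siRNA8 in the authors' deposited tables. SNHG25, with a mean of 19.9, had an SE of 0.56 after siRNA5 in the authors' deposited table for siRNA5, and scarce members had wide errors.

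Grouped by the snoRNAs within their RefSeq spans, 8 hosts held C/D snoRNAs only, 10 held H/ACA snoRNAs only, GAS5 and SNHG12 held both, and SNHG10 and SNHG21 held a Cajal body RNA. The C/D hosts had 2 called higher and 2 lower with each siRNA and medians of 0.05 and 0.07 in the authors' deposited tables. Among the H/ACA hosts, 1 was called higher and 4 lower after siRNA5 and 3 higher and 4 lower after siRNA8 in the authors' deposited tables, with medians of -0.28 and -0.60. Of all genes, 24.4% were called higher and 22.0% lower after siRNA5, and 21.0% and 20.5% after siRNA8. The 8 C/D hosts had a median mean of 846 normalized counts and the 10 H/ACA hosts one of 245 in the authors' deposited tables. The groups are small, differ in abundance and were not tested against each other. An effect of box type therefore cannot be read from these hosts. Members outside this class also hold snoRNAs within their RefSeq spans. Of these, LINC00888, STARD7-AS1 and THAP9-AS1 were called with neither siRNA in the authors' deposited tables. LRRC75A-AS1, now SNHG29 and host of SNORD49A, SNORD49B and SNORD65, rose by 0.24 (SE 0.063, adjusted p = 0.000707) after siRNA5 in the authors' deposited table for siRNA5. LINC02001, now SNHG30 and host of SNORD7, had levels of 85.0 in the control, 66.9 under siRNA5 and 35.5 under siRNA8 and fell by 1.26 (SE 0.29, adjusted p = 8.88e-05) after siRNA8 in the authors' deposited table for siRNA8.

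**Figure D3:**
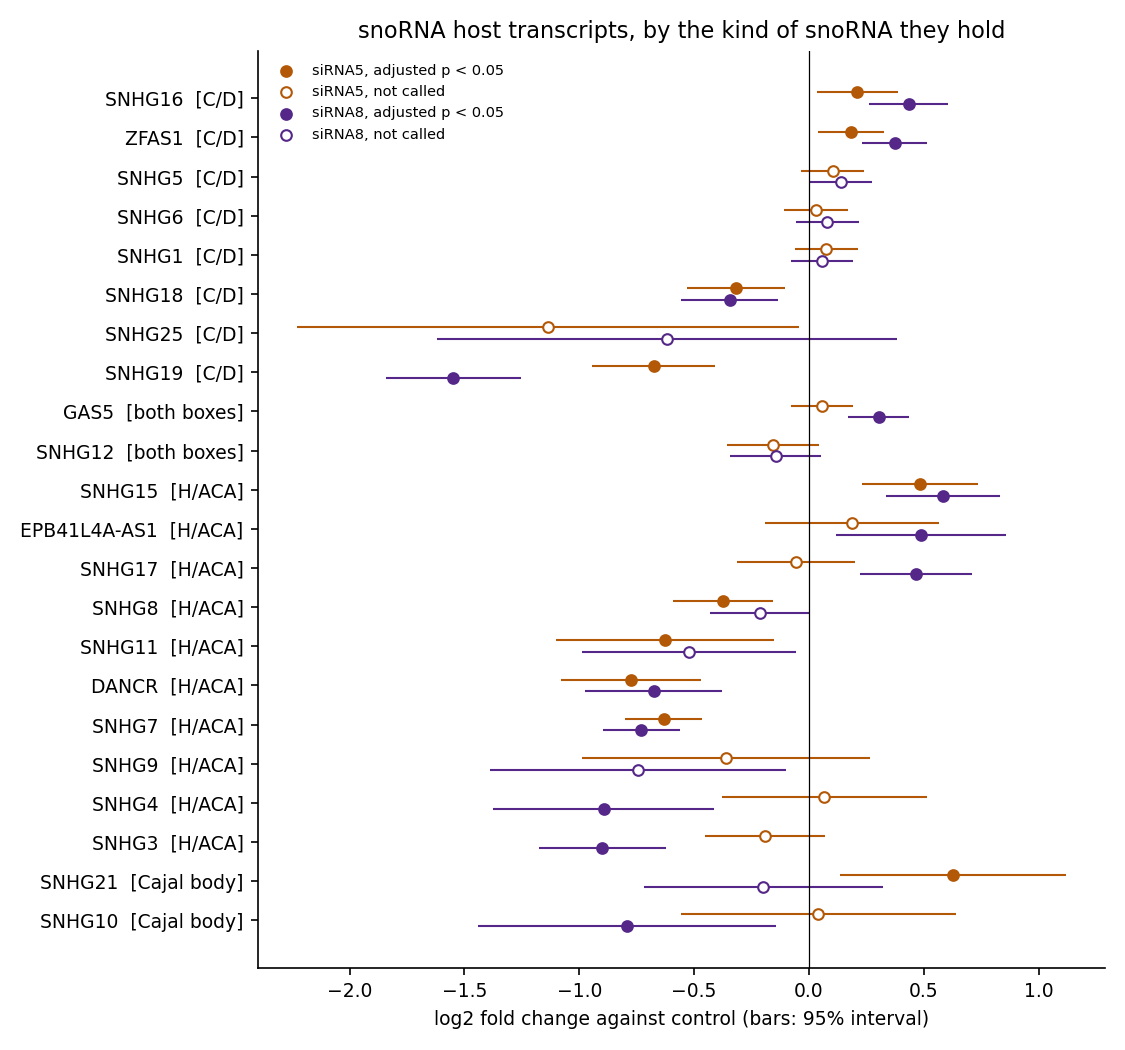
Log2 fold change against the control (horizontal axis) of the 22 snoRNA hosts, grouped by the kind of snoRNA in their span, for siRNA5 (orange) and siRNA8 (purple) from the authors' deposited tables. Bars are 95% intervals and filled points had an adjusted p under 0.05; SNHG15, SNHG16 and ZFAS1 lie to the right of 0 with both siRNAs, and SNHG7, SNHG18, SNHG19 and DANCR to the left.

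The proteins that bind the finished snoRNAs were listed beside their hosts. Of 17 snoRNP core and assembly proteins, 6 were called higher (35.3%) and 2 lower (11.8%) after siRNA5, against 24.4% and 22.0% of all genes. After siRNA8, 7 were called higher (41.2%) and 2 lower (11.8%), against 21.0% and 20.5%. Their medians were 0.06 and 0.19 in the authors' deposited tables. GAR1, a core H/ACA protein, rose by 0.38 (SE 0.099, adjusted p = 0.000452) after siRNA5 and rose by 0.27 (SE 0.099, adjusted p = 0.0186) after siRNA8 in the authors' deposited tables. NOP10, also of the H/ACA core, fell by 0.32 (SE 0.076, adjusted p = 9.38e-05) after siRNA5 and rose by 0.20 (SE 0.073, adjusted p = 0.0168) after siRNA8 in the authors' deposited tables. The C/D core proteins moved apart: NOP58 rose by 0.24 (SE 0.049, adjusted p = 7.32e-06) and NOP56 fell by 0.21 (SE 0.044, adjusted p = 1.06e-05) after siRNA5 in the authors' deposited table for siRNA5. ZNHIT6, a C/D assembly factor, rose by 0.34 (SE 0.078, adjusted p = 6.13e-05) after siRNA5 in the authors' deposited table for siRNA5, while ZNHIT3 fell by 0.44 (SE 0.11, adjusted p = 0.000195) after siRNA8 in the authors' deposited table for siRNA8. Of 50 protein-coding genes that host snoRNAs, among them many ribosomal protein genes, 10 were called higher and 7 lower after siRNA5. After siRNA8, 14 were called higher and 10 lower in the authors' deposited tables. Both siRNA5 shares lay below those of all genes, 24.4% higher and 22.0% lower. After siRNA8 the share higher lay above the 21.0% of all genes, and the share lower was near their 20.5%. The medians of the 50 genes were 0.00 and 0.06. WDR43, a ribosome assembly factor, rose by 0.25 (SE 0.056, adjusted p = 3.66e-05) after siRNA5 and rose by 0.43 (SE 0.055, adjusted p = 1.42e-13) after siRNA8 in the authors' deposited tables, and EIF4G2, a translation factor, fell by 0.52 (SE 0.036, adjusted p = 1.40e-44) after siRNA8 in the authors' deposited table for siRNA8.

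Of 10 nonsense-mediated decay factors, 1 was called higher and 3 lower after siRNA5 in the authors' deposited tables, against 24.4% and 22.0% of all genes. After siRNA8, 5 were called higher and 3 lower, against 21.0% and 20.5%. The share higher was thus below that of all genes after siRNA5 and above it after siRNA8, and the share lower was above it with both. With only 10 genes these shares rest on few calls, and the list was not tested as a set. SMG6, the endonuclease of that pathway, fell by 0.43 (SE 0.098, adjusted p = 5.36e-05) after siRNA5 and fell by 0.23 (SE 0.095, adjusted p = 0.0443) after siRNA8 in the authors' deposited tables. UPF3A fell by 0.31 (SE 0.13, adjusted p = 0.0449) after siRNA5 and fell by 0.47 (SE 0.13, adjusted p = 0.00184) after siRNA8 in the authors' deposited tables. Whether these factors act on the hosts here was not tested.

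Of the 15 microRNA hosts, 2 were called higher (13.3%) and 2 lower (13.3%) after siRNA5 in the authors' deposited table for siRNA5. After siRNA8, 1 was called higher (6.67%) and 1 lower (6.67%) in the authors' deposited table for siRNA8. These shares lay below those of all genes, 24.4% and 22.0% for siRNA5 and 21.0% and 20.5% for siRNA8. Their medians of 0.02 and -0.11 in the authors' deposited tables lay near that of all genes. MIR22HG, host of the miR-22 shown above, had levels of 221 in the control, 123 under siRNA5 and 125 under siRNA8. It fell by 0.85 (SE 0.18, adjusted p = 1.71e-05) after siRNA5 and fell by 0.83 (SE 0.18, adjusted p = 2.33e-05) after siRNA8 in the authors' deposited tables, and both knockdown levels were nearly equal.

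MIR100HG, the host of miR-100, let-7a and miR-125b, had levels of 58.7 in the control, 48.7 under siRNA5 and 154 under siRNA8. It rose by 1.39 (SE 0.22, adjusted p = 4.69e-09) after siRNA8 in the authors' deposited table for siRNA8, and its value was -0.27 (SE 0.25, adjusted p = 0.404) after siRNA5 in the authors' deposited table for siRNA5. The siRNA8 level stood apart from the other groups, and the difference of siRNA5 from siRNA8 was -1.66 (SE 0.34, adjusted p = 8.38e-06). MIR155HG, the host of the immune and oncogenic miR-155, had levels of 211 in the control, 296 under siRNA5 and 240.2 under siRNA8 and rose by 0.49 (SE 0.14, adjusted p = 0.00108) after siRNA5 in the authors' deposited table for siRNA5. MIR181A2HG, with the shared-seed pair shown above, rose by 0.90 (SE 0.39, adjusted p = 0.0441) after siRNA5 in the authors' deposited table for siRNA5 and had 0.68 (SE 0.39, adjusted p = 0.158) per the authors' deposited table for siRNA8. MIR31HG was scarce, with levels of 30.7 in the control, 7.53 under siRNA5 and 15.1 under siRNA8, and fell by 2.03 (SE 0.61, adjusted p = 0.00264) after siRNA5 in the authors' deposited table for siRNA5, beside -1.02 (SE 0.51, adjusted p = 0.0976) per the authors' deposited table for siRNA8. The test of the difference between siRNAs gave adjusted p = 0.244, 0.808 and 0.367 for MIR155HG, MIR181A2HG and MIR31HG, and 0.0492, 0.637 and 0.177 with the control variance rebuilt, so that MIR155HG passed only then.

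The other 10 microRNA hosts were not called. MIR17HG, host of the miR-17 to miR-92a cluster, had 0.11 (SE 0.20, adjusted p = 0.686) after siRNA5 and -0.20 (SE 0.20, adjusted p = 0.446) after siRNA8 in the authors' deposited tables. MIR34AHG, host of the p53-responsive miR-34a, had -0.46 (SE 0.29, adjusted p = 0.187) and 0.29 (SE 0.26, adjusted p = 0.402), and MIR210HG, host of the hypoxia-responsive miR-210, had -0.15 (SE 0.40, adjusted p = 0.785) and -0.57 (SE 0.42, adjusted p = 0.274) in the authors' deposited tables. MIR4435-2HG differed between the siRNAs, by -0.45 (SE 0.16, adjusted p = 0.0178); CYTOR is a near-identical copy of it, so its reads may be split. The values of MIRLET7BHG, MIR193BHG, MIR600HG, MIR3142HG, MIR4458HG and MIR503HG were 0.08, 0.21, 0.22, -0.75, 0.06 and 0.02 after siRNA5 in the authors' deposited table for siRNA5. With siRNA8 they were -0.11, -0.14, 0.01, 0.50, -0.67 and -1.11 in the authors' deposited table for siRNA8.

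**Figure D4:**
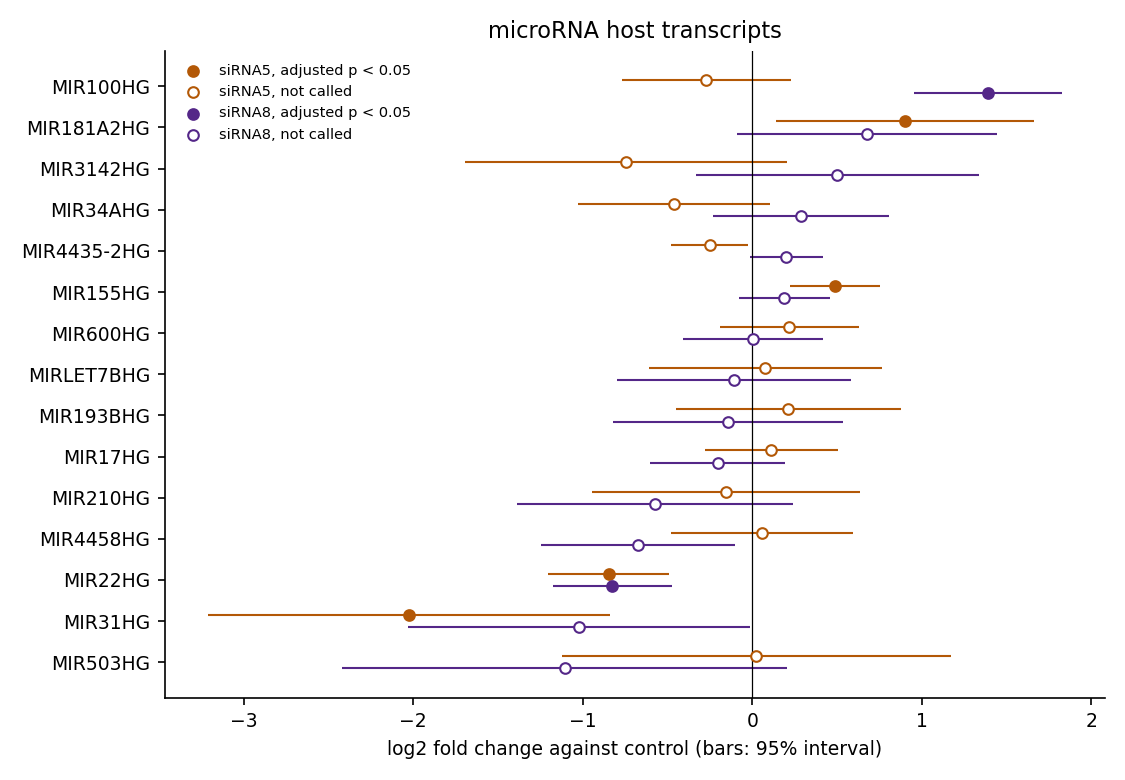
Log2 fold change against the control (horizontal axis) of the 15 microRNA hosts for siRNA5 (orange) and siRNA8 (purple), from the authors' deposited tables. Bars are 95% intervals and filled points had an adjusted p under 0.05; MIR22HG lies left of 0 with both siRNAs, and MIR100HG lies far right after siRNA8 only.

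Of 8 genes of microRNA processing, 3 were called higher (37.5%) and 1 lower (12.5%) after siRNA5, against 24.4% and 22.0% of all genes. After siRNA8, 3 were called higher (37.5%) and 2 lower (25.0%) in the authors' deposited tables, against 21.0% and 20.5%. AGO2, the slicing Argonaute, rose by 0.83 (SE 0.088, adjusted p = 1.55e-19) after siRNA5 and rose by 0.50 (SE 0.089, adjusted p = 1.92e-07) after siRNA8 in the authors' deposited tables. DGCR8, the partner of Drosha in cutting the hairpin, rose by 0.66 (SE 0.069, adjusted p = 1.64e-20) after siRNA5 and rose by 0.27 (SE 0.070, adjusted p = 0.000566) after siRNA8 in the authors' deposited tables. AGO1 moved the other way: it fell by 0.65 (SE 0.11, adjusted p = 5.64e-09) after siRNA5 and fell by 0.62 (SE 0.10, adjusted p = 2.63e-08) after siRNA8 in the authors' deposited tables. XPO5, the export receptor of the hairpin, fell by 0.44 (SE 0.062, adjusted p = 2.80e-11) after siRNA8 in the authors' deposited table for siRNA8.

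Of the 79 LINC genes, siRNA5 called 3 higher (3.80%) and 15 lower (19.0%) per the authors' deposited table for siRNA5, and siRNA8 called 8 higher (10.1%) and 10 lower (12.7%) per the authors' deposited table for siRNA8. Over all abundances, these shares lay below those of all genes, 24.4% and 22.0% for siRNA5 and 21.0% and 20.5% for siRNA8. The medians were -0.23 and 0.05, and 65.8% of values after siRNA5 and 44.3% after siRNA8 were below 0 in the authors' deposited tables. At means of 50 to 500, siRNA5 called 0 of 26 LINC genes higher and 30.8% lower, against 18.7% and 21.8% of other genes. With siRNA8 both LINC shares were 15.4%, against 16.1% and 18.6%. Under a mean of 50, siRNA5 called 5.77% of 52 higher and 13.5% lower, against 5.52% and 11.1%. For siRNA8 these were 7.69% and 11.5%, against 6.80% and 10.2%. In the direct comparison of the siRNAs, described below, 2.53% of the LINC genes were higher after siRNA5 and 13.9% lower. Of all genes, 17.2% and 14.8% were.

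LINC00704 showed the deepest siRNA5 fall among transcripts with a mean of 50 or more, with levels of 257 in the control, 70.4 under siRNA5 and 244 under siRNA8. It fell by 1.86 (SE 0.19, adjusted p = 1.86e-21) after siRNA5 in the authors' deposited table for siRNA5, and its value was -0.07 (SE 0.15, adjusted p = 0.744) after siRNA8 in the authors' deposited table for siRNA8. The siRNA8 level was close to the control, and the siRNAs differed by -1.79 (SE 0.24, adjusted p = 3.55e-12). LINC02085 had levels of 75.1 in the control, 33.5 under siRNA5 and 96.8 under siRNA8 and fell by 1.16 (SE 0.30, adjusted p = 0.000326) after siRNA5 in the authors' deposited table for siRNA5. LINC01605 had levels of 285 in the control, 179 under siRNA5 and 349 under siRNA8, so that the siRNAs lay on opposite sides of the control. It fell by 0.67 (SE 0.13, adjusted p = 3.64e-06) after siRNA5 and rose by 0.29 (SE 0.12, adjusted p = 0.0393) after siRNA8 in the authors' deposited tables. LINC01116 was split in the same way, with levels of 334 in the control, 231 under siRNA5 and 406 under siRNA8; it fell by 0.53 (SE 0.13, adjusted p = 0.000162) after siRNA5 and rose by 0.28 (SE 0.12, adjusted p = 0.0443) after siRNA8 in the authors' deposited tables.

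LINC00958, LINC01835 and LINC00899 lay below the control with both siRNAs. LINC00958 had levels of 357 in the control, 205 under siRNA5 and 233 under siRNA8, and fell by 0.80 (SE 0.14, adjusted p = 1.24e-07) after siRNA5 and fell by 0.61 (SE 0.14, adjusted p = 4.73e-05) after siRNA8 in the authors' deposited tables. LINC01835 had levels of 203 in the control, 94.0 under siRNA5 and 149 under siRNA8, and fell by 1.11 (SE 0.19, adjusted p = 3.25e-08) after siRNA5 and fell by 0.45 (SE 0.17, adjusted p = 0.0241) after siRNA8 in the authors' deposited tables. For LINC00899, with a mean of 35.1, the falls were -1.04 (SE 0.38, adjusted p = 0.0159) and -0.96 (SE 0.37, adjusted p = 0.0266) in the authors' deposited tables. LINC02274 lay above the control with both, at levels of 20.8 in the control, 54.4 under siRNA5 and 44.9 under siRNA8, and rose by 1.39 (SE 0.33, adjusted p = 0.000112) after siRNA5 and rose by 1.11 (SE 0.33, adjusted p = 0.00308) after siRNA8 in the authors' deposited tables. LINC01089 fell by 1.05 (SE 0.32, adjusted p = 0.00377) after siRNA8 in the authors' deposited table for siRNA8. LINC01508 rose by 0.51 (SE 0.13, adjusted p = 0.000325) and LINC00467 rose by 0.54 (SE 0.22, adjusted p = 0.0375) after siRNA8 in the same table. LINC00472 fell by 0.75 (SE 0.27, adjusted p = 0.0162) after siRNA5 in the authors' deposited table for siRNA5.

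Not all LINC symbols still name non-coding RNAs. RefSeq lists LINC00116 as the protein-coding MTLN, a mitochondrial micropeptide, and LINC01279 as CCDC80, a secreted matrix protein. LINC00116, described here for its annotation, had -0.04 (SE 0.16, adjusted p = 0.862) after siRNA5 and -0.15 (SE 0.16, adjusted p = 0.466) after siRNA8 in the authors' deposited tables. LINC01279, with levels of 24.6 in the control, 7.25 under siRNA5 and 27.3 under siRNA8, fell by 1.76 (SE 0.56, adjusted p = 0.00474) after siRNA5 in the authors' deposited table for siRNA5.

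The 150 antisense transcripts were the largest class. With siRNA5, 12 were called higher and 36 lower (24.0%) per the authors' deposited table for siRNA5, and after siRNA8, 6 were called higher and 24 lower (16.0%) per the authors' deposited table for siRNA8. The shares called lower stand beside 22.0% and 20.5% of all genes. Their medians were -0.30 and -0.26, and 66.7% and 70.7% of values were below 0 in the authors' deposited tables. Where the mean was under 50, 3.67% of 109 were called higher and 21.1% lower after siRNA5 in the authors' deposited table for siRNA5. Of the genes outside the set in that stratum, 5.52% and 11.1% were. After siRNA8 the antisense shares were 2.75% and 12.8% in the authors' deposited table for siRNA8, against 6.80% and 10.2%. At means of 50 to 500, siRNA5 called 17.9% of 39 antisense transcripts higher and 30.8% lower, against 18.7% and 21.8%. For siRNA8 these were 7.69% and 25.6%, against 16.1% and 18.6%. RefSeq now lists 22 of the 269 transcripts as divergent transcripts (-DT), which start beside their neighbour and run away from it. The library kit keeps strand, but the sources used here do not say whether the counting used it, so reads of an antisense gene and of its partner may not be told apart.

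Among antisense transcripts with a mean of at least 50, ARRDC1-AS1, TP73-AS1, BAIAP2-AS1, CCDC183-AS1, TMPO-AS1, VPS9D1-AS1 and NCBP2-AS2 were called lower with each siRNA. ARRDC1-AS1 had levels of 295 in the control, 146 under siRNA5 and 175 under siRNA8, and fell by 1.01 (SE 0.17, adjusted p = 4.94e-08) after siRNA5 and fell by 0.75 (SE 0.17, adjusted p = 3.87e-05) after siRNA8 in the authors' deposited tables. TP73-AS1, beside the p53 relative TP73, had levels of 280.3 in the control, 173 under siRNA5 and 177 under siRNA8, and fell by 0.70 (SE 0.16, adjusted p = 5.08e-05) after siRNA5 and fell by 0.67 (SE 0.16, adjusted p = 0.000112) after siRNA8 in the authors' deposited tables. BAIAP2-AS1 had levels of 291 in the control, 182 under siRNA5 and 119.8 under siRNA8, and fell by 0.68 (SE 0.15, adjusted p = 1.82e-05) after siRNA5 and fell by 1.28 (SE 0.15, adjusted p = 3.35e-15) after siRNA8 in the authors' deposited tables. CCDC183-AS1 was lowest after siRNA8, with levels of 422 in the control, 319 under siRNA5 and 205 under siRNA8. The values of CCDC183-AS1 in the authors' deposited tables were -0.40 (SE 0.14, adjusted p = 0.0111) after siRNA5 and -1.04 (SE 0.15, adjusted p = 3.25e-11) after siRNA8. VPS9D1-AS1 fell by 1.28 (SE 0.27, adjusted p = 1.50e-05) after siRNA5 and fell by 0.78 (SE 0.25, adjusted p = 0.00686) after siRNA8 in the authors' deposited tables. NCBP2-AS2, which RefSeq lists as a protein-coding gene, fell by 0.75 (SE 0.13, adjusted p = 3.76e-08) after siRNA5 and fell by 0.31 (SE 0.12, adjusted p = 0.0304) after siRNA8 in the authors' deposited tables.

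Further falls with both siRNAs were found among scarcer antisense transcripts. GNAS-AS1, from the imprinted GNAS locus, had levels of 66.0 in the control, 19.9 under siRNA5 and 18.4 under siRNA8, and fell by 1.73 (SE 0.39, adjusted p = 4.55e-05) after siRNA5 and fell by 1.84 (SE 0.39, adjusted p = 1.48e-05) after siRNA8 in the authors' deposited tables. The siRNA5 falls of ATP2A1-AS1, EXOC3-AS1, ZBTB11-AS1, PTPRG-AS1, NOP14-AS1, PPP3CB-AS1 and EIF3J-AS1 were -1.55, -1.45, -1.44, -1.17, -1.11, -0.94 and -0.91 in the authors' deposited table for siRNA5. Their siRNA8 falls were -1.07, -1.12, -1.10, -1.11, -0.82, -1.40 and -1.10 in the authors' deposited table for siRNA8. All 7 had means under 50, with adjusted p from 0.000108 to 0.0467 in the authors' deposited tables. PINK1-AS, opposite the mitophagy kinase PINK1, was called after siRNA5 only, as were CTBP1-AS2 and APCDD1L-AS1. They fell by 1.00 (SE 0.22, adjusted p = 2.00e-05), 0.78 (SE 0.22, adjusted p = 0.00155) and 0.66 (SE 0.094, adjusted p = 2.81e-11) per the authors' deposited table for siRNA5. The siRNA8 values of these transcripts were -0.31, -0.34 and -0.19 in the authors' deposited table for siRNA8. For the difference between siRNAs, the test gave adjusted p = 0.0576, 0.291 and 0.00134, so only APCDD1L-AS1 passed. With the control variance rebuilt, PINK1-AS (adjusted p = 0.00443) passed as well and CTBP1-AS2 (adjusted p = 0.0955) did not.

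Rises were fewer. CAPN10-AS1, listed by RefSeq as a divergent transcript of the calpain gene CAPN10, had levels of 30.6 in the control, 94.1 under siRNA5 and 31.7 under siRNA8. It rose by 1.62 (SE 0.28, adjusted p = 8.84e-08) after siRNA5 in the authors' deposited table for siRNA5 and had 0.05 (SE 0.31, adjusted p = 0.919) after siRNA8 in the authors' deposited table for siRNA8, and only the siRNA5 level left the control. SH3BP5-AS1 had levels of 36.8 in the control, 105 under siRNA5 and 67.1 under siRNA8, and rose by 1.51 (SE 0.23, adjusted p = 8.35e-10) after siRNA5 and rose by 0.87 (SE 0.24, adjusted p = 0.00116) after siRNA8 in the authors' deposited tables. PSMD6-AS2, with a mean of 14.4, rose by 1.49 (SE 0.53, adjusted p = 0.0128) after siRNA5 and rose by 1.38 (SE 0.53, adjusted p = 0.0245) after siRNA8 in the authors' deposited tables. OIP5-AS1, also known as Cyrano and a partner of miR-7, had levels of 333 in the control, 519 under siRNA5 and 360.0 under siRNA8 and rose by 0.64 (SE 0.12, adjusted p = 1.54e-06) after siRNA5 in the authors' deposited table for siRNA5. FOXD2-AS1 rose by 1.07 (SE 0.25, adjusted p = 8.39e-05), OTUD6B-AS1 rose by 0.39 (SE 0.14, adjusted p = 0.0162), MAGI2-AS3 rose by 0.37 (SE 0.13, adjusted p = 0.00855) and FGD5-AS1 rose by 0.31 (SE 0.099, adjusted p = 0.00496) after siRNA5 in the same table. With siRNA8, UBA6-AS1 rose by 0.83 (SE 0.17, adjusted p = 9.00e-06) and VIM-AS1, beside the vimentin gene, rose by 0.74 (SE 0.21, adjusted p = 0.00205) per the authors' deposited table for siRNA8.

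The sense partner, the gene whose symbol stands before -AS, was measured for 128 of the 150. In GENCODE v29, 62 of these pairs start head to head within 2000 bases of each other, 55 overlap or lie together otherwise, and 11 were not matched. The median of the antisense transcripts in these pairs was -0.35 after siRNA5 and -0.27 after siRNA8 in the authors' deposited tables, and that of their partners was 0.03 and -0.02. With siRNA5, both genes of a pair were called in 22 pairs, in 14 of them in the same direction, and in 22 further pairs the antisense transcript alone was called in the authors' deposited table for siRNA5. With siRNA8, both were called in 16 pairs, 11 of them in the same direction, and the antisense transcript alone in 13 in the authors' deposited table for siRNA8. Of the 128 partners, 34 were called higher and 23 lower after siRNA5, and 26 and 29 after siRNA8. Of all genes, 46.4% were called after siRNA5 and 41.5% after siRNA8. With calls this common, both genes of some pairs are called without any link between them. Whether the overlap goes beyond that was not tested. Across pairs, the log2 changes had Pearson's r of 0.16 and Spearman's rho of 0.27 after siRNA5 and 0.27 and 0.19 after siRNA8 in the authors' deposited tables. These are descriptions over 128 pairs of genes measured in the same libraries. Head-to-head pairs had r of 0.26 and 0.32, and the other overlapping pairs 0.12 and 0.25, from the authors' deposited tables.

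Single pairs lay in every combination of directions. SH3BP5, a mitochondrial regulator of JNK, rose by 0.37 (SE 0.14, adjusted p = 0.0162) and OTUD6B, a deubiquitinase, rose by 0.57 (SE 0.078, adjusted p = 3.72e-12) after siRNA5 in the authors' deposited table for siRNA5, beside antisense transcripts that rose. CAPN10-AS1 was called higher while CAPN10 fell by 0.88 (SE 0.13, adjusted p = 2.19e-10) after siRNA5 in the authors' deposited table for siRNA5. ARRDC1 was lower with its antisense transcript: it fell by 0.62 (SE 0.12, adjusted p = 2.69e-06) after siRNA5 and fell by 0.56 (SE 0.12, adjusted p = 1.71e-05) after siRNA8 in the authors' deposited tables. TMPO, which encodes a nuclear lamina protein, rose by 0.20 (SE 0.050, adjusted p = 0.000220) after siRNA5 and fell by 0.23 (SE 0.051, adjusted p = 3.83e-05) after siRNA8, while TMPO-AS1 fell by 0.73 (SE 0.25, adjusted p = 0.00941) and fell by 1.30 (SE 0.26, adjusted p = 6.06e-06) in the authors' deposited tables. NOP14, a ribosome assembly factor, rose by 0.43 (SE 0.059, adjusted p = 3.60e-12) after siRNA8 in the authors' deposited table for siRNA8, where NOP14-AS1 was called lower. GNAS, the stimulatory G protein, had 0.03 (SE 0.040, adjusted p = 0.575) after siRNA5 and 0.14 (SE 0.040, adjusted p = 0.00209) after siRNA8 in the authors' deposited tables, beside the falls of GNAS-AS1. VIM fell by 0.18 (SE 0.044, adjusted p = 0.000166) after siRNA8 in the authors' deposited table for siRNA8, where VIM-AS1 was called higher. H1FX-AS1 fell by 2.11 (SE 0.56, adjusted p = 0.000820) and its linker histone partner H1FX fell by 1.52 (SE 0.12, adjusted p = 4.26e-35) after siRNA8 in the authors' deposited table for siRNA8. This pair was picked with its values in view. EXOC3, ZBTB11, PTPRG and EIF3J were not called with either siRNA in the authors' deposited tables, beside antisense transcripts that were.

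**Figure D5:**
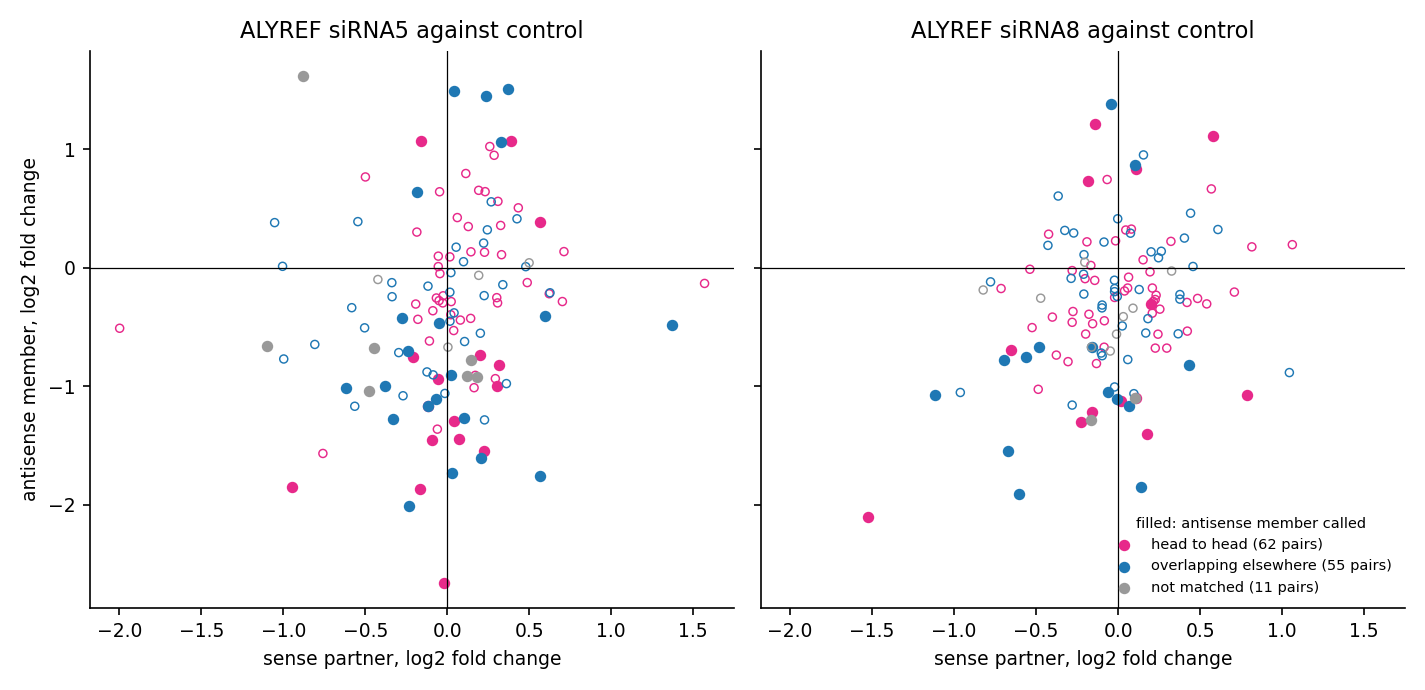
Log2 fold change of each antisense transcript (vertical axis) against that of its sense partner (horizontal axis) for siRNA5 (left) and siRNA8 (right) in 128 pairs, from the authors' deposited tables. Colours give the arrangement of the pair and filled points mark called antisense transcripts; most filled points lie below 0 on the vertical axis and on both sides of 0 on the horizontal axis.

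The exosome and its nuclear adaptors, which remove unstable antisense and promoter transcripts, were listed beside this class. Of 23 such genes, 6 were called higher (26.1%) and 6 lower (26.1%) after siRNA5, against 24.4% and 22.0% of all genes. After siRNA8, 7 were called higher (30.4%) and 2 lower (8.70%) in the authors' deposited tables, against 21.0% and 20.5%. EXOSC6, a subunit of the exosome ring, fell by 1.36 (SE 0.20, adjusted p = 8.12e-11) after siRNA5 and fell by 0.74 (SE 0.18, adjusted p = 0.000206) after siRNA8 in the authors' deposited tables. SRRT, also named ARS2 and bound to the cap-binding complex, rose by 0.84 (SE 0.053, adjusted p = 1.27e-53) after siRNA5 and rose by 0.31 (SE 0.054, adjusted p = 1.43e-07) after siRNA8 in the authors' deposited tables. ZC3H18, which links that complex to decay adaptors, fell by 0.53 (SE 0.072, adjusted p = 4.68e-12) after siRNA5 in the authors' deposited table for siRNA5 and had 0.15 (SE 0.068, adjusted p = 0.0561) per the authors' deposited table for siRNA8. Their part in the falls of the antisense transcripts was not tested.

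The siRNAs were compared directly by the difference of their log2 changes in the authors' deposited tables, siRNA5 minus siRNA8. By this test 10 of the 269 transcripts were higher after siRNA5 and 21 lower, against 17.2% and 14.8% of all genes. The shares of 3.72% and 7.81% lay below that background over all abundances. At means of 50 to 500, 8.43% of 83 transcripts were higher and 15.7% lower after siRNA5, against 12.1% and 11.7% of the other genes, so there the share lower was above that of the other genes. With the control variance rebuilt and taken out of the SE, 65 of the 269 passed. The median SE of the difference then fell from 0.151 to 0.107 over all genes, so this count cannot be set against the shares above. The share of all genes that passed in that setting is not given here. By the main test, the LINC genes gave 2 higher (2.53%) and 11 lower (13.9%) after siRNA5, and the antisense transcripts 5 (3.33%) and 6 (4.00%). The snoRNA hosts gave 3 (13.6%) and 2 (9.09%), and the microRNA hosts 0 and 2 (13.3%). LINC00704, LINC01605, MIR100HG, LINC01116 and UBA6-AS1 had the smallest adjusted p-values, and all 5 were lower after siRNA5 than after siRNA8. The differences of SNHG3, SNHG4, SNHG17 and GAS5 were 0.71 (SE 0.19, adjusted p = 0.00153), 0.96 (SE 0.33, adjusted p = 0.0159), -0.52 (SE 0.18, adjusted p = 0.0154) and -0.24 (SE 0.096, adjusted p = 0.0351). For SNHG10, EPB41L4A-AS1, SNHG8, SNHG11 and SNHG21, called with 1 siRNA only, the difference had adjusted p = 0.153, 0.438, 0.484, 0.856 and 0.0690. With the control variance rebuilt, SNHG10 (adjusted p = 0.0266) and SNHG21 (adjusted p = 0.00344) passed and the other 3 did not (0.179, 0.241 and 0.753).

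The share called lower was also set beside the number of exons in GENCODE v29. After siRNA5 it was 21.4% of 28 transcripts with 1 exon, 10.3% of 29 with 2 exons, 24.2% of 91 with 3 or 4 exons and 18.8% of 101 with 5 or more, by the authors' deposited table for siRNA5, beside 22.0% of all genes. After siRNA8 the shares in the same order were 17.9%, 17.2%, 14.3% and 15.8% by the authors' deposited table for siRNA8, beside 20.5% of all genes. The 3 intronic transcripts, AGPAT4-IT1, GABPB1-IT1 and NPTN-IT1, were not called; they had siRNA5 values of -0.53, 0.23 and -0.32 and siRNA8 values of -0.47, -0.63 and -0.17 in the authors' deposited tables.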

How the data were processed

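Polyadenylated RNA of 786-O cells was read as paired ends of directional libraries, 2 per group, per the labels' protocols. The submitters' processing notes name STAR, Picard, HTSeq, DESeq2 and the build hg19; the sources used here give no versions, settings or use of strand in counting. For each siRNA the authors deposited 1 table of DESeq2 results, with 11681 rows: 11679 genes and 2 counters of unassigned reads, which held 7.85% of the sum of means and were left out. No other column of values per sample was present (0). Per the file headers, the signal of a gene is the authors' mean normalized count, identical in both tables. The authors deposited log2 fold changes with standard errors, a Wald score that is their ratio, and two-sided p-values with Benjamini-Hochberg adjustment over all rows, which was recomputed to within 1.36e-15. The direction was read from ALYREF.

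The plan allowed for counts per library; with none, the authors' DESeq2 fit was used as it stands. Rebuilt group levels assume equal weight for 6 libraries, 2 per group, and unshrunk fold changes; the dispersion rebuilt from each table differed by a median of 2.61%. To compare siRNA5 and siRNA8, the difference of log2 changes was divided by the square root of the added variances (normal, two-sided, Benjamini-Hochberg over 11679 genes). That SE leaves out the shared control and is an upper bound. The calculations were tested on simulated data, and were run with Python 3.11.15, pandas 2.3.3 and scipy 1.17.1.

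The members, lists and tests were chosen with earlier results of these data known. Named were all snoRNA and microRNA hosts, and transcripts called alike with both siRNAs, oppositely, or in the difference. Per siRNA, up to 10 of the largest rises and falls with a mean of at least 50 were added, with the sense partners of named antisense transcripts, ALYREF, and up to 4 genes per list. A gene that this rule takes from the lists is not reported here. All 269 symbols matched RefSeq (GRCh38.p14) and 249 matched GENCODE v29. Neither is on the build of the files. The coordinates and sequences printed above are the references' own, on GRCh38, and no others are given. Alternatives were a threshold of 0.01, a mean of at least 100, centring on the median of all genes, a fold change of at least 1.5, and a rebuilt control variance.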

Additional observations from a re-analysis of the deposited data

Results flagged for a closer look

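For 31 transcripts the change against the control differed between the siRNAs by the test of the difference itself, given here as the log2 change after siRNA5 minus that after siRNA8 from the authors' deposited tables. Each SE of this test is an upper bound, and the causes were not tested.

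LINC00704 had the smallest adjusted p, with a difference of -1.79 (SE 0.24, adjusted p = 3.55e-12); it was called lower after siRNA5 and not called after siRNA8. LINC01605 differed by -0.97 (SE 0.18, adjusted p = 1.17e-06) and LINC01116 by -0.82 (SE 0.18, adjusted p = 3.14e-05), and each was called lower after siRNA5 and higher after siRNA8 in the authors' deposited tables. MIR100HG differed by -1.66 (SE 0.34, adjusted p = 8.38e-06) and UBA6-AS1 by -1.14 (SE 0.26, adjusted p = 6.63e-05), each with a call only after siRNA8, as higher.

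The other LINC genes lower after siRNA5 than after siRNA8 were LINC02085 (-1.53), LINC01411 (-2.88), LINC01117 (-1.76), LINC01508 (-0.55), LINC01279 (-1.91), LINC01835 (-0.66), LINC00472 (-0.92) and LINC00674 (-0.31). LINC00641 (1.55) and LINC01355 (1.86) were higher after siRNA5. Of these, LINC00674 and LINC01355 were called with neither siRNA against the control in the authors' deposited tables.

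Among antisense transcripts, APCDD1L-AS1 (-0.48), TTC28-AS1 (-0.73), ST20-AS1 (-2.21), NCBP2-AS2 (-0.44) and MKLN1-AS (-1.56) were lower after siRNA5. CAPN10-AS1 (1.57), CCDC183-AS1 (0.64), OIP5-AS1 (0.53), BAIAP2-AS1 (0.60) and RNF139-AS1 (1.75) were higher after siRNA5. The means of ST20-AS1, RNF139-AS1 and MKLN1-AS were 20.9, 17.3 and 24.6 normalized counts in the authors' deposited tables.

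Of the hosts, SNHG19 (0.87), SNHG3 (0.71) and SNHG4 (0.96) were higher after siRNA5, and SNHG17 (-0.52), GAS5 (-0.24) and MIR4435-2HG (-0.45) were lower. ALYREF itself was left at 5.67% after siRNA5 and 7.83% after siRNA8 by the authors' deposited tables.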

How the results depend on the processing

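No paired analysis was possible because the deposited tables hold no values per library, and fits without 1 replicate were not run for the same reason. The counts called after siRNA5 (80 in all, 21 higher and 59 lower) became 49, 12 and 37 at an adjusted p of 0.01 and 31, 9 and 22 among the 64 transcripts with a mean of at least 100; 13 rises were at least 1.5-fold. With siRNA8 (63, 21 higher) they became 41 and 13 at 0.01, and 11 rises were at least 1.5-fold. Among the 64, siRNA8 called 28, of which 12 were higher and 16 lower. Differences between the siRNAs (31, 10 siRNA5 higher and 21 lower) became 14, 5 and 9 at 0.01. They were 19, with 5 higher, among the 64. With the control variance rebuilt and taken out they were 65, 27 and 38, with no count over all genes beside them. Fewer genes tested or a stricter limit account for the smaller counts by construction. These alternatives leave signs as they are, or shift values by about 0.01 (centring), so they do not test direction. Centring on the median of all genes kept 261 of 264 single results on their side of the threshold; 2 lost and 1 gained a call. Low counts limit the set: 173 of 269 means were under 50, where the median SE after siRNA5 was 0.47 in the authors' deposited tables.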
